A study of Mus musculus with 24 samples.

Results

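Atf3, Ecel1, Gap43, Sprr1a, Sox11, Gadd45a, Klf6 and Gal are 8 genes of the neuronal axon injury programme, described here across 24 RNA sequencing libraries of mouse entorhinal cortex. They are 8 of 55417 genes in the deposited read count table, and each symbol matched an entry. The genes were selected on knowledge of that programme and on earlier results of these data, in which the levels of Atf3 and Ecel1 had been found higher on days 2 and 3 than with vehicle. Their differences between days and vehicle are therefore given as a description.

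The study followed gene expression in the adult entorhinal cortex, the main cortical input to the hippocampus, on successive days after activation of the GlyCl channel. All libraries came from mice of 2 to 4 months with the genotype tg/tg that carried both Nop-tTA Line S and TRE-GlyCl-YFP Line 9531. Controls carried both transgenes too and received vehicle (labelled Veh), and the other groups were labelled 1DPI, 2DPI and 3DPI and are called day 1, day 2 and day 3 here. Each group held 6 libraries, with 4 females and 2 males in vehicle and 3 of each sex on each day. The agent that activated the channel and the time at which vehicle tissue was taken are not given in the labels. In such a line tTA switches on the TRE transgene, so the channel is made only where the Nop promoter drives tTA, whereas RNA came from the whole dissected cortex.

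Neurons whose axon is damaged switch on a transcriptional programme through the kinases DLK and JNK. Its transcription factors, among them ATF3, SOX11, KLF6 and JUN, accompany the induction of growth proteins, peptides and enzymes, and the same kinases can also lead to death of the neuron. In peripheral sensory and motor neurons these genes are standard markers of injury, while adult forebrain neurons keep Gap43 at a substantial resting level.

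Library totals ranged from 16621659 to 23667449 reads. Levels are reads of a gene per 1000000 reads of the library (CPM), given as mean ± SD over 6 libraries. The transgene reporter EYFP was read in every library, at 112 ± 19.2 CPM with vehicle and 61.9 ± 9.95 CPM on day 3, where it fell (log2 fold change -0.89 ± 0.11, SE; edgeR adjusted p = 1.19e-05). Levels of 8 genes of entorhinal neurons (Reln, Calb1, Wfs1, Klk8, Cux1, Lef1, Trps1 and Etv1) were compared between groups. No other tissue was in the data, so these levels do not show which region was dissected. Their summed level was 724 to 816 CPM in vehicle libraries and 714 to 792 CPM on day 3, and edgeR called none of them on any day. Ttr, which marks choroid plexus, set 8 libraries (1 vehicle, 2 day 1, 2 day 2 and 3 day 3) apart at 562 to 1174 CPM, against 8.28 to 25.9 CPM in the other 16. These 8 are called the Ttr-rich libraries below.

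The sequence before the start of transcription is shown for Atf3 and Ecel1, the genes that rose, and for Sprr1a, a classic injury gene that was almost unread. Sequences are from RefSeq on the GRCm38.p6 build, which is not the mm39 build named for the deposited counts, and all 3 genes lie on the minus strand. The stretches run 5′ to 3′ over the 250 bases before the start: chr1:191183334-191183583 for Atf3, chr1:87156357-87156606 for Ecel1 and chr3:92485882-92486131 for Sprr1a. Capitals mark matches to any of 4 motifs searched.
Atf3: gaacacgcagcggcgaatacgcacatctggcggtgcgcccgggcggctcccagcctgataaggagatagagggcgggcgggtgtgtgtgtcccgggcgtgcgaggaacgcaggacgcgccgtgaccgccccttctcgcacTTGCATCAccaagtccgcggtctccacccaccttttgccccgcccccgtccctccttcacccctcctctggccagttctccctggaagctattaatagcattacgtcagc
Ecel1: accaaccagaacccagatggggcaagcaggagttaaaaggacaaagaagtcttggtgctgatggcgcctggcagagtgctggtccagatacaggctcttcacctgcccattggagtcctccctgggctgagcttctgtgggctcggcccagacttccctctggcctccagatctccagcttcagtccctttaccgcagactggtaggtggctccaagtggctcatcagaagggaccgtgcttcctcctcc
Sprr1a: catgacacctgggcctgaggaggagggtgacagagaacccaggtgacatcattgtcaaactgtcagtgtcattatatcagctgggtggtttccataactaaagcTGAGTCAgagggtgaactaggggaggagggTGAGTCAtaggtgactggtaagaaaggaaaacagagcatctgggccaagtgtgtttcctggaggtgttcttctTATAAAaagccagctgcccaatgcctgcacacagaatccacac

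The motifs were the cyclic AMP response element TGACGTCA, the AP-1 site TGANTCA, the C/EBP-ATF response element (CARE) TGATGCAA and the TATA box TATAAA, each read on both strands, and no match of one overlapped a match of another in these genes. In windows from 250 bases before to 50 bases after the start, they were found in 1.79%, 7.81%, 0.895% and 13.6% of 32851 RefSeq promoters, in that order. Of the 8 genes, 7 were in that table. Atf3 held 1 CARE match, as its reverse complement TTGCATCA, with its first base 110 bases before the start. Sprr1a held 2 AP-1 matches (TGAGTCA) with first bases 146 and 116 bases before the start, and a TATA match whose first base lay 43 bases before it. The orientation of the Sprr1a and Sox11 windows is the RefSeq table's and could not be checked against GENCODE transcripts. These letters were not found in the windows of Ecel1, Sox11, Gadd45a, Klf6 or Gal.

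With vehicle, the 8 genes spanned a wide range of expression. Per kilobase of exon, the level was 173 ± 14.6 CPM for Gap43, 12.7 ± 1.82 for Klf6, 3.88 ± 0.978 for Ecel1, 3.35 ± 0.378 for Sox11 and 1.70 ± 0.460 for Gadd45a. Atf3 (0.236 ± 0.101), Gal (0.161 ± 0.0565) and Sprr1a (0.0481 ± 0.0751) were lowest on the same scale. Ecel1 and Sox11 differed by less than their spread, and so did Atf3 and Gal. A growth cone gene thus led the order, while the transcription factor Atf3, the peptide Gal and the structural protein Sprr1a held few reads.

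Atf3 encodes a stress-induced transcription factor of the ATF/CREB family that is close to silent in uninjured neurons. With vehicle it was read at 0.254 CPM in the lowest library, 0.463 CPM at the median and 0.843 CPM in the highest, which was 5 to 15 reads per library and 58 reads in all. On day 1 the lowest, median and highest values were 0.260, 0.760 and 1.14 CPM, and each of the ranges of the first 2 groups covered most of the other. Atf3 held 0.898, 1.41 and 1.74 CPM on day 2, from 152 reads, and 1.02, 1.44 and 1.89 CPM on day 3, from 177 reads. Each of the 6 libraries of day 2 and of day 3 lay above the highest vehicle library. That was found for 0.262% of all genes on day 2 and 0.692% on day 3, and Atf3 was selected with its rise known.

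Group means of Atf3 were 0.508 ± 0.217, 0.750 ± 0.295, 1.36 ± 0.353 and 1.498 ± 0.319 CPM in the order vehicle, day 1, day 2, day 3. Counts were fitted with edgeR's quasi-likelihood test over 16767 genes with sex as a covariate, and a gene is called where its Benjamini-Hochberg adjusted p over all of them is under 0.05. Atf3 rose on day 2 by a log2 fold change of 1.41 ± 0.29 (SE; edgeR adjusted p = 0.0499) and on day 3 by 1.53 ± 0.28 (edgeR adjusted p = 0.00265), a 2.90-fold difference. On day 1 the value was 0.56 ± 0.30 (edgeR adjusted p = 0.732). The low-count filter asks for a level of 0.528 CPM. For Atf3, 3 of 6 vehicle and 5 of 6 day 1 libraries reached it, against all 6 on days 2 and 3. The day 2 call stood at the threshold and was made in 4 of 9 alternative analyses (other tools, filters, covariates and subsets of libraries). It was lost with a filter of 1 CPM (edgeR adjusted p = 0.0514), with limma voom (adjusted p = 0.0903), with only the compared groups (edgeR adjusted p = 0.177) and with the animal number series, the leading digits of the animal number, as a factor (edgeR adjusted p = 0.338). Of 24 fits that each left out 1 library, only those without vehicle library 6, day 1 library 1 or 5, or day 2 library 3 or 4 kept it, while the log2 value stayed between 1.28 and 1.59 in all 24. The day 3 call was made in all 24 such fits and in 8 of 9 alternatives. Without the Ttr-rich libraries neither was called, at 1.37 ± 0.35 on day 2 (edgeR adjusted p = 0.420) and 1.56 ± 0.36 on day 3 (edgeR adjusted p = 0.0913).

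Ecel1 encodes an endopeptidase-like membrane protein of the neprilysin family, also known as DINE for damage-induced neuronal endopeptidase. With vehicle the lowest, median and highest libraries held 8.43, 14.03 and 17.6 CPM, and on day 1 they held 12.5, 17.1 and 20.7 CPM. Ecel1 reached 16.7, 22.7 and 38.4 CPM on day 2, and 22.2, 28.6 and 30.7 CPM on day 3. Every day 3 library lay above every vehicle library, as was found for 0.692% of all genes. On day 2, 5 of 6 libraries lay above the highest vehicle library, and the spread was the widest of the 4 groups.

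The group means of Ecel1 were 13.6 ± 3.42, 16.5 ± 2.86, 24.8 ± 8.02 and 27.9 ± 2.96 CPM. Ecel1 rose on day 2 (log2 fold change 0.88 ± 0.17, edgeR adjusted p = 0.0247) and on day 3 (1.04 ± 0.17, edgeR adjusted p = 0.000462), the latter a 2.05-fold difference. On day 1 its value was 0.28 ± 0.17 (edgeR adjusted p = 0.781). The day 3 call was made in all 9 alternatives and all 24 fits without 1 library, with log2 values of 0.92 to 1.12 in the latter. The day 2 call was lost with limma voom (adjusted p = 0.0564), with only the compared groups in the fit (edgeR adjusted p = 0.179), without the Ttr-rich libraries (edgeR adjusted p = 0.117), and without vehicle library 1, 5 or 6 or day 2 library 2. Day 2 library 5 held the 38.4 CPM, and without it the day 2 value was 0.72 ± 0.14 (edgeR adjusted p = 0.0477). The fit with no filter on low counts, 1 of the 9 alternatives, also called Ecel1 from day 1 to day 2 (edgeR adjusted p = 5.45e-12). The main fit gave an edgeR adjusted p of 0.657 there. Calls made with no filter, for Atf3 too, are therefore weak checks.

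**Figure D1:**
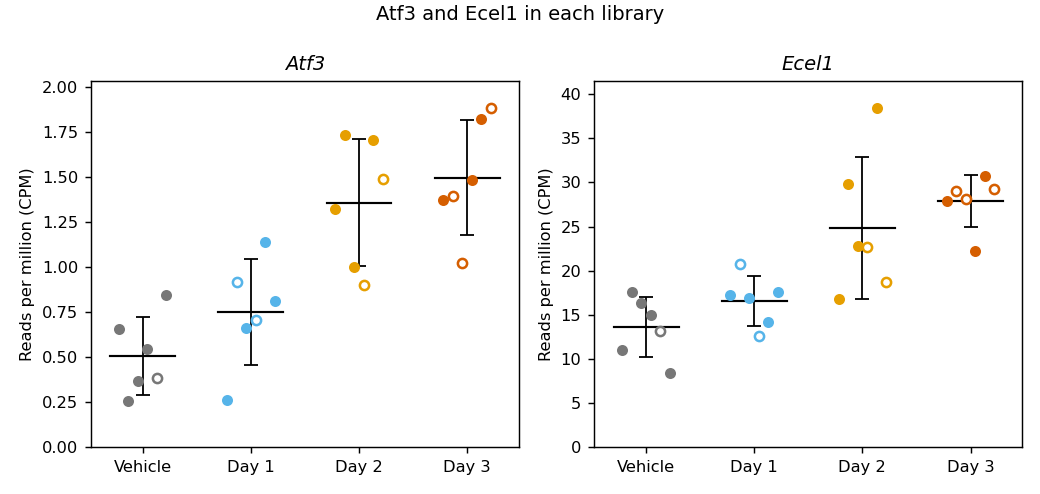
CPM of Atf3 (left) and Ecel1 (right) in each of 24 libraries, by group; points are libraries, open points are the Ttr-rich libraries, and bars are the mean ± SD. Atf3 lies at 0.254 to 0.843 CPM with vehicle and at 1.02 to 1.89 CPM on day 3, and Ecel1 at 8.43 to 17.6 and 22.2 to 30.7 CPM.

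Between the days, Ecel1 was higher on day 3 than on day 1 (log2 fold change 0.76 ± 0.16, edgeR adjusted p = 0.0161). That call was lost without the Ttr-rich libraries (0.69 ± 0.21, edgeR adjusted p = 0.193) and without day 1 library 4, day 1 library 5 or day 3 library 6. Atf3 differed by 0.98 ± 0.26 between those days (edgeR adjusted p = 0.0954). From day 1 to day 2 the values were 0.85 ± 0.27 for Atf3 (edgeR adjusted p = 0.957) and 0.60 ± 0.16 for Ecel1 (edgeR adjusted p = 0.657). From day 2 to day 3 they were 0.13 ± 0.25 and 0.16 ± 0.16 (edgeR adjusted p = 0.999 for both), and both genes overlapped widely between those days. These comparisons share libraries with the ones against vehicle. In bulk tissue, more cells that express a gene and more RNA per cell cannot be told apart.

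Gap43 encodes a growth cone membrane protein and was the most abundant of the 8 per kilobase of exon. Its lowest, median and highest libraries held 242, 261 and 298 CPM with vehicle and 254, 270 and 290.2 CPM on day 3. The means of the 4 groups were 264 ± 22.2, 260 ± 16.5, 270.5 ± 26.2 and 270.6 ± 12.1 CPM, and all groups overlapped. The log2 fold changes of Gap43 on days 1, 2 and 3 were -0.03, 0.04 and 0.03, each ± 0.06, and the 95% interval on day 3 was -0.08 to 0.14.

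Sox11 encodes a transcription factor of neuronal development that injured sensory neurons express again. It held 23.7, 27.5 and 33.1 CPM in the lowest, median and highest vehicle libraries and 25.3, 28.9 and 32.8 CPM on day 3. The groups overlapped throughout, with means of 27.8 ± 3.14, 27.5 ± 3.59, 28.4 ± 3.58 and 29.1 ± 3.05 CPM. The log2 fold changes of Sox11 were -0.05, 0.01 and 0.03, each ± 0.09, and the 95% interval on day 3 was -0.14 to 0.21.

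Klf6, a Krüppel-like transcription factor tied to axon growth, held 47.8, 54.2 and 69.2 CPM in the lowest, median and highest vehicle libraries and 52.9, 55.4 and 67.4 CPM on day 3. Its means were 55.6 ± 7.97, 62.2 ± 5.77, 60.0 ± 8.98 and 57.1 ± 5.34 CPM, with overlap between all groups. The log2 fold changes of Klf6 were 0.15, 0.10 and 0.02, each ± 0.09, with a 95% interval of -0.15 to 0.20 on day 3.

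Gadd45a, a stress and DNA damage response gene, held 2.02, 3.02 and 4.33 CPM in the lowest, median and highest vehicle libraries and 2.54, 2.97 and 3.62 CPM on day 3. Its means were 3.00 ± 0.812, 2.59 ± 0.422, 3.09 ± 0.733 and 3.04 ± 0.454 CPM, again with overlap between all groups. The log2 fold changes of Gadd45a were -0.22 ± 0.18, 0.04 ± 0.17 and 0.01 ± 0.17, and the 95% interval on day 3 was -0.33 to 0.35. EdgeR called none of Gap43, Sox11, Klf6 and Gadd45a in any of the 6 comparisons between groups, and none of them had an unadjusted p under 0.05.

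Gal encodes the neuropeptide galanin, a strong injury marker in peripheral neurons, and did not pass the low-count filter. It was read 15, 25, 26 and 27 times in all over the 6 libraries of vehicle, day 1, day 2 and day 3. Vehicle libraries held 1 to 4 reads each and day 1 libraries 3 to 7. Of the 26 day 2 reads of Gal, 20 were in day 2 library 5 (1.07 CPM), while 3 of the other 5 libraries held none and those 5 held 6 reads together. The same library had the highest Ecel1 value of all 24 and 1.71 CPM of Atf3. On day 3 the libraries held 1 to 10 reads. Pooled over each group, the level of Gal was 0.129 CPM with vehicle (95% exact Poisson interval 0.0719 to 0.212) and 0.231 CPM on day 3 (0.152 to 0.336). These intervals cover counting error only, and they overlap.

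Sprr1a encodes a small proline-rich protein of the cornified envelope that injured sensory neurons induce. It was read 5 times over the 6 vehicle libraries, 0 times on day 1, 2 times on day 2 and 5 times on day 3, and it did not pass the filter. The 0 reads of day 1 allow a level of up to 0.025 CPM by the limit of 3 counts over the group, and the 95% exact Poisson interval ends at 0.0307 CPM. On day 3 the reads came from 4 libraries with 1 or 2 each, and with vehicle from 2 libraries with 2 and 3. A difference in Sprr1a was not detectable at this depth, since the 95% exact Poisson interval ran from 0.0139 to 0.0997 CPM on day 3 and from 0.0139 to 0.100 CPM with vehicle.

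**Figure D2:**
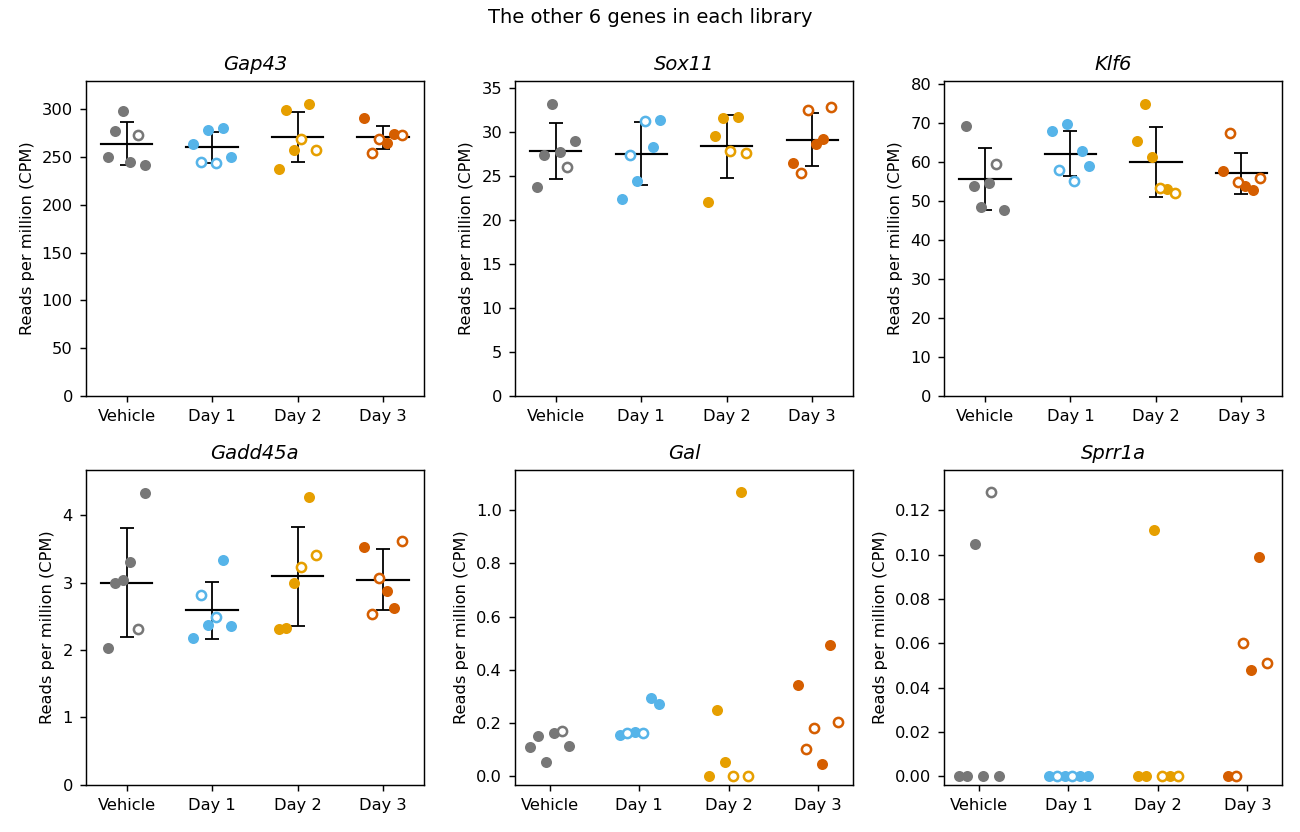
CPM of the other 6 genes in each library, by group; points are libraries, open points are the Ttr-rich libraries, and bars are the mean ± SD (not drawn for Gal and Sprr1a, which hold few reads). Gap43, Sox11, Klf6 and Gadd45a overlap between all groups, and 1 day 2 library holds 1.07 CPM of Gal.

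Of the 8 genes, 6 passed the filter and could be tested. On day 1 edgeR called 0 of the 6 (0 at an unadjusted p under 0.05, 0 with DESeq2, 0 with limma voom), where 0.0656% of all genes were called and 7.25% had an unadjusted p under 0.05. On day 2 it called 2, Atf3 and Ecel1, beside 0.0656% of all genes, with DESeq2 calling both and limma voom 0. On day 3 it called the same 2, beside 0.614% of all genes, and both other tools called them too. The median log2 fold change of the 6 was 0.06, 0.07 and 0.03 on days 1, 2 and 3, against 0.00112, 0.000586 and -0.00162 over all genes tested. The genes were chosen with the rises of Atf3 and Ecel1 known, and Atf3 reached the filter level in fewer vehicle libraries than later ones. These counts and medians are therefore a description and support nothing further, for the 2 genes or beyond them. Libraries of the later group all above vehicle were found for 0.262% of all genes on day 2, where Atf3 showed this, and for 0.692% on day 3, where Atf3 and Ecel1 did.

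Between days, edgeR called 0 of the 6 from day 1 to day 2, beside 0.0119% of all genes, although Atf3 and Ecel1 were among the 4.25% of all genes with an unadjusted p under 0.05. It called 0 from day 2 to day 3, beside 0.131% of all genes, with none at an unadjusted p under 0.05, against 4.94% of all genes. DESeq2 and limma voom called 0 in both. From day 1 to day 3 it called Ecel1, beside 0.65% of all genes, where DESeq2 called Atf3 as well and limma voom called Ecel1.

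**Figure D3:**
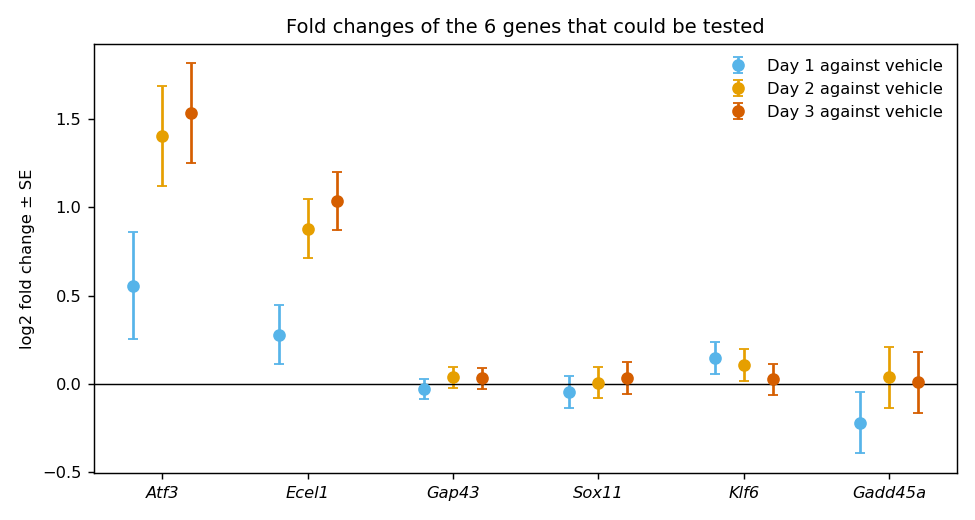
Log2 fold change against vehicle of the 6 genes that could be tested, with its standard error, on days 1, 2 and 3; the horizontal line is 0. Atf3 reaches 1.53 and Ecel1 1.04 on day 3, and the other 4 genes lie between -0.22 and 0.15.

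The wider injury programme was read from 7 lists with 116 other genes, of which 103 could be tested. EdgeR called 0 of the 103 on day 1, day 2 and day 3. At an unadjusted p under 0.05 the numbers were 17, 8 and 12, or 16.5%, 7.77% and 11.7% of the 103, where all genes tested gave 7.25%, 5.2% and 5.64%. DESeq2 called 2 on day 1, the kinase gene Map3k13 and the protease gene Plat, and 0 on the other days, and limma voom called 0. Between days 1 and 3 edgeR and limma voom called 0 and DESeq2 called 2, Stat3 (edgeR log2 fold change 0.19 ± 0.05, edgeR adjusted p = 0.054) and Tubb2b (0.27 ± 0.07, edgeR adjusted p = 0.089). At an unadjusted p under 0.05 that comparison gave 23 of the 103 (22.3%), against 8.39% of all genes. From day 1 to day 2 and from day 2 to day 3 no tool called any, and 8 (7.77%) had an unadjusted p under 0.05 in each, against 4.25% and 4.94% of all genes. The 103 were chosen with earlier results known, so these shares are a description. Against vehicle, the median log2 fold changes of the 103 were -0.00414, 0.00100 and -0.00429, next to those of all genes given above. With 0.614% of all genes called on day 3, a count of 0 called among 103 is near that background.

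Transcription factors of the programme, such as Jun and Stat3, made up a list of 18, all tested, with a median of 0.02 on day 3 and a range of -0.23 to 0.30. Its most abundant genes were Klf9, a repressor of axon growth (-0.18 ± 0.06 on day 3, edgeR adjusted p = 0.477), and Atf4, a factor of the integrated stress response (-0.03 ± 0.05, edgeR adjusted p = 0.999). The 14 genes of DLK and JNK kinases and their scaffolds, all tested, had a median of -0.04 on day 3 and a range of -0.17 to 0.06. Mapk8ip3, a JNK scaffold of axonal transport, was at 0.02 ± 0.03 and Mycbp2, a ubiquitin ligase that limits DLK, at -0.02 ± 0.05 (edgeR adjusted p = 0.999 for both).

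Growth cone and cytoskeleton genes, the class of Gap43, numbered 22, all tested, and lay between -0.09 and 0.25 on day 3 with a median of 0.01. Kif5c, a kinesin heavy chain, was at -0.04 ± 0.04, and Basp1, a membrane protein with a role close to that of Gap43, at 0.01 ± 0.04. Other genes induced in injured neurons numbered 20, of which 16 were tested, with a median of 0.06 on day 3 and a range of -0.21 to 1.03. The abundant Vgf, a neuropeptide precursor, was at -0.06 ± 0.06 and Cacna2d1, a calcium channel subunit, at -0.04 ± 0.05. The top of that range was Plaur, the urokinase receptor gene, at 1.03 ± 0.32 (edgeR adjusted p = 0.284), which is named because its value stood apart.

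Peptides and secreted factors, the class of Gal, numbered 15, of which 9 were tested, with a median of -0.06 on day 3 and a range of -0.11 to 0.55. Cck was at 0.00 ± 0.05, from a fitted value of -0.00429, and Npy at -0.08 ± 0.07. The 13 genes of axon degeneration and neuronal death, all tested, had a median of -0.01 on day 3 and a range of -0.22 to 0.32. Nmnat2, an axon survival enzyme, was at 0.01 ± 0.04 and Tnfrsf21, a death receptor, at -0.01 ± 0.05. Relatives and partners of the 8 genes numbered 14, of which 11 were tested, with a median of -0.07 on day 3 and a range of -0.39 to 0.19. Nrgn, a neuronal calmodulin-binding protein, was at -0.05 ± 0.06, and Ece1, a peptidase related to Ecel1, at -0.09 ± 0.05 (edgeR adjusted p = 0.959). EdgeR called none of the genes named from these lists on any day against vehicle.

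**Figure D4:**
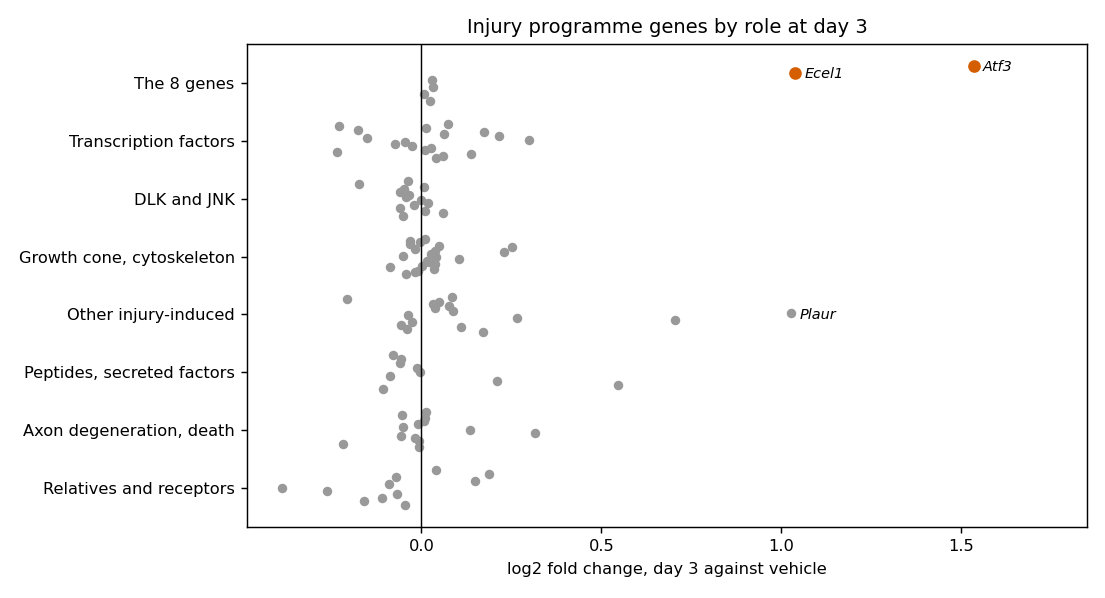
Log2 fold change on day 3 against vehicle of the tested genes of 8 groups, one row per group by role; each point is a gene, orange points were called by edgeR and the vertical line is 0. Atf3 and Ecel1 are the called genes, and the other groups lie around 0 with Plaur at 1.03.

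A few markers of other cells rose over the same days, while edgeR called no gene of the oligodendrocyte, oligodendrocyte precursor, endothelial or meningeal lists against vehicle. Of 6 microglial genes, edgeR called 2 on day 3, among them the chemokine receptor gene Cx3cr1 (log2 fold change 0.26 ± 0.06, edgeR adjusted p = 0.0412). Of 6 astrocyte genes, Gfap, the filament protein of reactive astrocytes, rose on day 2 (0.51 ± 0.08, edgeR adjusted p = 0.00116) and day 3 (1.12 ± 0.08, edgeR adjusted p = 1.77e-10), and the summed level was 3931 to 4761 CPM with vehicle and 4281 to 4791 CPM on day 3. None of 7 neuronal genes was called, and their sum was 10931 to 11465 CPM with vehicle and 10852 to 11275 CPM on day 3. Of 6 genes of infiltrating blood cells, none passed the filter, and they summed to at most 0.932 CPM in any library. No marker of these lists was at 0 in all libraries. The part of these cells in the values of Atf3 and Ecel1 was not tested.

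Genes of the choroid plexus had higher fitted values on each day without a call, as did genes of red blood cells on days 2 and 3. The median log2 fold change of 6 choroid plexus genes was 0.67, 0.74 and 1.12 on days 1, 2 and 3, and that of 5 red blood cell genes was 0.71 on day 2 and 0.36 on day 3. The summed choroid plexus level ran from 14.1 to 1251 CPM with vehicle and from 20.2 to 1171 CPM on day 3. Within the 16 libraries poor in Ttr, the day 3 value of Ecel1 was 0.97 ± 0.20 (edgeR adjusted p = 0.0376), close to its value in all libraries, and that of Atf3 is given above.

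Over the 24 libraries, the genes whose log2 CPM was most like that of Atf3 included Fermt3 (Pearson r = 0.74), Aldh18a1 (0.71), Ppp1r15a (0.68) and Cd180 (0.65). Ppp1r15a encodes a phosphatase subunit of the stress response, and Fermt3 is a gene of blood and immune cells. Those most like Ecel1 were Lcp2 (0.80), Gfap (0.76), Usp39 (0.75), Lcp1 (0.75) and C4b (0.74). Lcp1 and Lcp2 are genes of immune cells, and C4b is a complement gene whose reads can be shared with a near-identical copy. Ecel1 was in place 23 of the Atf3 order (r = 0.59), while Gap43 (0.06) and Klf6 (-0.01) were far down it. All points share the 4 groups, so these values hold the difference between days.

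After group and sex were fitted, none of the genes most like Atf3 or Ecel1 stayed among the first 5. The leading genes were then Prps1l3, Gm47982, Pced1a, Rnd1 and Vps29 for Atf3 (r = 0.71 to 0.65) and Igsf1, Hlcs, Ptpn14, Trp53i11 and Cdh4 for Ecel1 (r = 0.81 to 0.76). Among the residuals of the 24 libraries, no relation of Atf3 and Ecel1 was detected (Pearson r = -0.15, Spearman rho = -0.12, permutation p = 0.483, adjusted p = 0.724). Atf3 held few reads per library, so a relation could have been missed.

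Of 15 pairs among the 6 tested genes, 4 passed at an adjusted permutation p under 0.05 over the 24 residuals. The permutations made no allowance for the terms fitted before, so these p-values are too small and passes near 0.05 are uncertain. Ecel1 and Gap43 were higher in the same libraries (r = 0.61, rho = 0.51, permutation p = 0.00157, adjusted p = 0.0118). Their r was 0.43 without the 2 libraries farthest from the median of Gap43 (permutation p = 0.0491, adjusted p = 0.184). It was 0.65 with the animal number series as a further term. In each pair the 2 libraries left out were chosen on 1 gene, so libraries extreme only in the other were kept. Gadd45a was lower where Klf6 was higher (r = -0.69, rho = -0.62, permutation p = 0.00018, adjusted p = 0.0027). The r of this pair was -0.56 without the 2 libraries farthest from the median of Klf6. With the animal series fitted it was -0.53 (adjusted permutation p = 0.058).

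The other pairs that passed were Sox11 with Klf6 (r = -0.56, rho = -0.49, permutation p = 0.0041, adjusted p = 0.0205) and Sox11 with Gadd45a (r = 0.51, rho = 0.44, permutation p = 0.0109, adjusted p = 0.0409). Without the 2 libraries farthest from the median of Klf6 and of Gadd45a, in that order, they gave -0.63 and 0.49 (adjusted permutation p = 0.0251 and 0.107). With the animal number series fitted they gave -0.29 and 0.24 (adjusted p = 0.432 and 0.548), with the same signs, and neither passed. Several series hold few libraries, so that fit cannot show whether the relations hold within series. By rank, only the Gadd45a and Klf6 pair among these 4 passed (adjusted p = 0.0231).

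**Figure D5:**
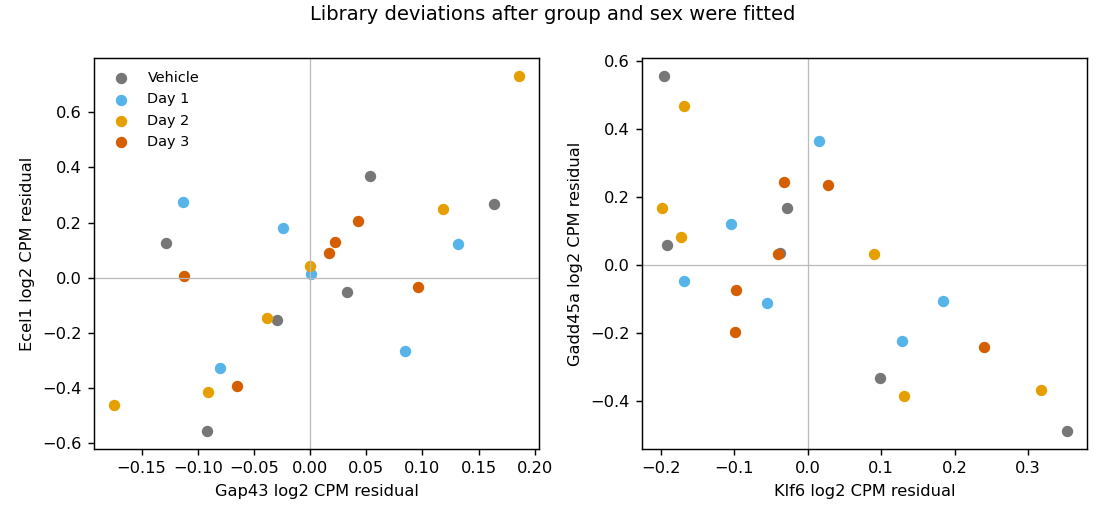
Residual log2 CPM of each of 24 libraries after group and sex were fitted, for Ecel1 against Gap43 (left) and Gadd45a against Klf6 (right), coloured by group. Pearson r is 0.61 on the left and -0.69 on the right.

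The 6 genes were also set against 6 other readouts in the same residuals: EYFP, Gfap, Cx3cr1, the activity-induced gene Fos, Ttr and the haemoglobin gene Hbb-bs. Of these 36 pairs, 0 passed, and r ran from -0.40 to 0.59. The highest was Sox11 with Fos (r = 0.59, rho = 0.46, permutation p = 0.00246, adjusted p = 0.0886). Its r was 0.34 without the 2 libraries farthest from the median of Fos. With the animal series fitted r was 0.66 (adjusted permutation p = 0.0191). The permutations did not allow for the many terms then fitted, so no conclusion is drawn from that value. Atf3 gave r = -0.28 with EYFP and -0.15 with Gfap, and Ecel1 gave 0.16 with Gfap and 0.12 with Cx3cr1 (adjusted p of 0.854 for each). Within groups, libraries with more Gfap were thus not detectably those with more Atf3 or Ecel1.

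The effect of days was set against sex with an interaction term. Over the 3 days jointly, edgeR called 0 of 16767 genes, and limma voom 0, and the adjusted p was 1.00 for each of the 6 genes. Ecel1 had a larger day effect in males than in females by 0.79 on day 2 (log2; edgeR unadjusted p = 0.0203) and 0.80 on day 3 (edgeR unadjusted p = 0.0183), neither of which passed adjustment. Atf3 differed in the other direction by -0.999 and -0.803 on the same days (edgeR unadjusted p = 0.0966 and 0.172). Vehicle held 2 males, which limits these values.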

How the data were processed

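Read counts per gene were deposited by the authors as 1 table of whole numbers, not normalized, with a column for each of 24 libraries. Per the submitters' processing notes, fastp 0.23.1, STAR 2.7.9a, DESeq2 1.32.0 and the mm39 build were named; the role of each, the program that counted, the annotation and the strand setting: not given in the sources used here. Thus reads of overlapping genes cannot be told apart. Groups came from the treatment label. Each library has its own animal number, but the labels do not state separate animals, and p-values may then measure only the spread between libraries.

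The 8 genes, the other lists and the tests were chosen with earlier results of these data known. Symbols came from a table that held 52083 of 55416 Ensembl identifiers. Counts were tested in R 4.3.3 with edgeR 4.0.16 (quasi-likelihood, two-sided, Benjamini-Hochberg over all genes, trimmed mean of M values, filterByExpr with minimum count 10 and minimum total 15), with group and sex fitted over 24 libraries, which kept 16767 genes. The procedure was tested on simulated data. CPM are counts scaled to the plain library total, and exon lengths are those of GENCODE M21. Likeness and residuals used log2 CPM with a prior count of 2, and likeness was ranked over genes with a symbol. Named were the 8 genes; called genes of other lists; for lists with none called, the 2 most abundant genes; and the 5 genes most like Atf3 and Ecel1. Of the genes this rule names, 1 is not reported here. Correlations used 100000 permutations of the residuals, with no allowance for the terms fitted before.

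Alternatives were DESeq2 1.42.0, its size factors in edgeR, limma voom (limma 3.58.1), no filter, a filter of 1 CPM in 6 libraries, no sex term, the leading digits of the animal number (animal number series) as a factor, the compared groups alone, no Ttr-rich libraries (Ttr of at least 100 CPM), and each library left out.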

Additional observations from a re-analysis of the deposited data

Results flagged for a closer look

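Within the groups of 6 libraries, 4 of 39 gene and group combinations had a library whose gap to its nearest neighbour was large against the group's range, past Dixon's 95% limit; chance gives about 1 in 20. Gal stood at 1.07 CPM in day 2 library 5, a gap of 0.767 of the range. Ecel1 was lowest on day 3 in library 4, at 22.2 CPM, which was still above every vehicle library. Klf6 was highest on day 3 in library 2, at 67.4 CPM. Sprr1a was read in a single day 2 library, library 3, at 0.111 CPM from 2 reads, so its gap was the whole range by construction.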

How the results depend on the processing

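Atf3 and Ecel1 kept their direction on days 2 and 3 against vehicle in all 9 alternatives and all 24 fits without 1 library. The number of the 8 genes called on day 2 (2) was 1 with the 1 CPM filter and with the animal series, 0 with limma voom, 0 with the compared groups alone, 0 without the Ttr-rich libraries, and 0 to 2 without 1 library. On day 3 (2) it was 1 without the Ttr-rich libraries. From day 1 to day 2 (0) it was 1 with no filter (Ecel1, with the p-value given above). From day 1 to day 3 (1) it was 2 with no filter and with DESeq2, 0 without the Ttr-rich libraries, and 0 to 1 without 1 library. Of 36 log2 values of the 6 tested genes, 13 changed sign in at least 1 alternative or fit without 1 library; none of the 13 was called, and they lay between -0.05 and 0.16. The changes of over 1 SE were those without the Ttr-rich libraries for Gap43 on day 1 (0.0277) and Ecel1 from day 2 to day 3 (-0.0557). Over all genes, the day 1 count (11) was 159 with no filter, 75 with DESeq2, 31 with the animal series and 4 to 28 without 1 library. The day 2 count (11) was 86 with no filter, 18 with DESeq2, 7 with the 1 CPM filter and with limma voom, 3 with the compared groups alone, 2 without the Ttr-rich libraries and 7 to 12 without 1 library. The day 3 count (103) was 217 with no filter, 49 without the Ttr-rich libraries and 72 to 110 without 1 library. Of the 36 pairs of genes and readouts, 1 passed with the animal series fitted, by permutations that did not allow for the fitted terms. Apart from fewer libraries or other genes tested, the cause of these shifts was not tested. Replicate numbers follow the order of deposit and pair no libraries. The animal number series, which groups share, was fitted as a factor instead. With 58 reads of Atf3 over the vehicle libraries and fewer still of Gal and Sprr1a, depth limits these genes most.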
